A study of Mus musculus with 4 samples.

Results

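Obese fat tissue gathers macrophages around dying, lipid-laden adipocytes, and these cells take up lipid through a shared program of receptors, lysosomal proteins and secreted factors. The receptor TREM2 senses lipids and lipoproteins and signals through the adaptor TYROBP, and cells that carry this program are known as lipid-associated macrophages. The 10 genes described here, Trem2, Gpnmb, Spp1, Cd9, Cd63, Lgals3, Fabp5, Mmp12, Atp6v0d2 and Itgax, are recognised genes of that program. They were chosen by symbol, with earlier results of these data known, and each was found once among the 17335 genes of the expression table.

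Expression was measured by RNA-Seq in gonadal white adipose tissue (gWAT) of female mice on a high-fat diet (HFD), given for 18 weeks by the series' design text. The controls carried floxed Dnmt1 alleles without Cre (fl/fl), and their AD1KO littermates carried the same alleles and an adiponectin-Cre transgene, which deletes Dnmt1 mainly in mature adipocytes and leaves the macrophages of the tissue with their own Dnmt1. RNA of 4 animals per genotype was pooled into 1 library per genotype, so no spread between animals can be given, no p-value was computed, and every difference below compares 2 libraries with no replicate check. The labels give no age for these animals. The bisulfite sequencing samples (RRBS) were not used here.

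Expression is given as FPKM, fragments scaled to transcript length and to library size, and a difference as a log2 ratio, AD1KO over fl/fl, after adding 0.01 FPKM to both. The spacing of low FPKM values placed the libraries at 17705000 and 17580000 reads for fl/fl and AD1KO, from which reads per gene were estimated. The 10 genes held 813 to 35403 estimated reads in fl/fl and 379 to 16821 in AD1KO, so all of them were well sampled. Intervals are exact 95% Clopper-Pearson intervals on these reads and cover counting error only, not the spread between animals. Dnmt1, the targeted gene, measured 6.99 FPKM in the fl/fl library and 3.33 FPKM in the AD1KO library (log2 ratio -1.07, interval -1.27 to -0.87), so the lower level lay in the library labelled AD1KO. Of genes that reached 0.1 FPKM in either library, 8.07% had a lower ratio than Dnmt1. Which cell types account for the Dnmt1 difference in whole tissue was not tested.

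Of the 10 genes, 9 were lower in the AD1KO library by at least 0.5 on the log2 scale, the threshold of the study's methods, and 0 were higher by that much. Over the 15839 genes that reached 0.1 FPKM in either library (tested genes), 19.1% were lower and 14.3% higher by this rule. Restricting all genes to those that reached 1 FPKM in either library, the shares were 16.3% lower and 10.1% higher. At a log2 ratio of -1 or below, the count was 7 of 10, beside 8.95% of all tested genes, and 0 of 10 were at 1 or above, beside 5.75%. The whole counting interval lay below -0.5 for 9 of the 10, beside 8.37% of all tested genes, and above 0.5 for 0, beside 4.15%. As the 10 genes were chosen with earlier results known, these shares are a description and not a test. The median log2 ratio of the 10 genes was -1.11, and that of all tested genes was -0.04. Fabp5 was the exception. The 10 genes together summed to 3779 FPKM in fl/fl and 2035 FPKM in AD1KO, or 0.655% and 0.373% of the FPKM of all genes.

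**Figure D1:**
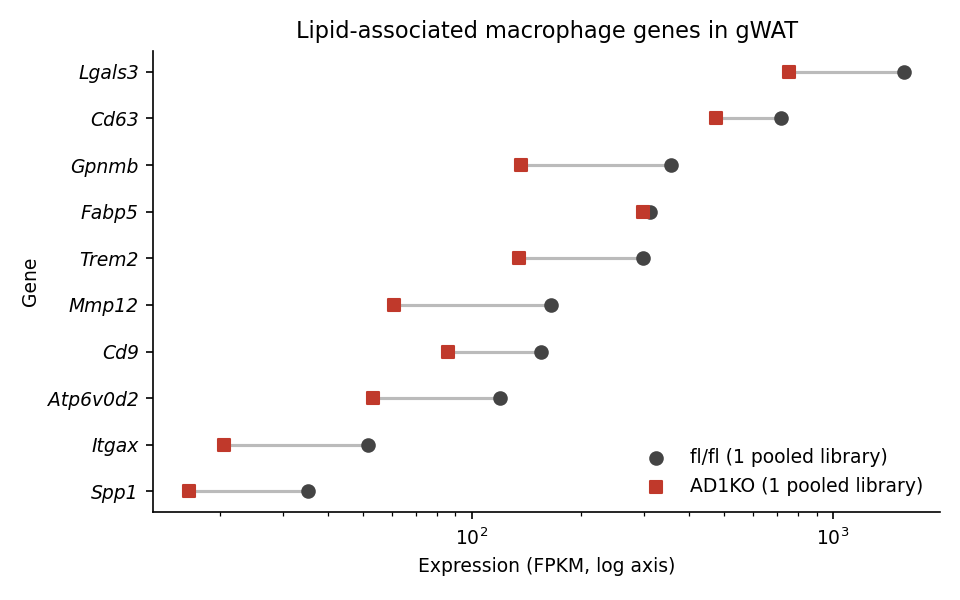
Expression of the 10 lipid-associated macrophage genes in FPKM (log axis), with the fl/fl library as grey circles and the AD1KO library as red squares, ordered by level in fl/fl. Lgals3 is the most abundant at 1572 and 753 FPKM, Spp1 the least at 35.0 and 16.5 FPKM, and the paired symbols of Fabp5 nearly coincide.

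Trem2 (gene 83433, chromosome 17 of mm9, 48485726 to 48493472, plus strand, 4 exons in its longest transcript) encodes the lipid-sensing receptor of the program. It was at 297 FPKM in fl/fl and 135 FPKM in AD1KO. The AD1KO level was 45.6% of the fl/fl level (log2 ratio -1.13, interval -1.21 to -1.07). Tyrobp, the adaptor through which TREM2 signals, stood at 1077 and 474 FPKM (log2 ratio -1.19, interval -1.25 to -1.14). The ratio of Trem2 to Tyrobp in FPKM was thus 0.276 in fl/fl and 0.286 in AD1KO, and the difference between their log2 ratios was 0.05, with an interval from -0.04 to 0.14 that holds 0. Hcst, which encodes the related adaptor DAP10, was at 10.99 and 5.29 FPKM (log2 ratio -1.05, interval -1.72 to -0.42).

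Among 14 genes of TREM2 signalling, none of them a member of the group of 10, 11 were lower and 1 higher by at least 0.5 on the log2 scale. Over all tested genes, 19.1% were lower and 14.3% higher. The median log2 ratio of the 14 was -0.93. Markers of T cells, NK cells and mast cells were lower as well, as given below. The part of each cell type in the values of these signalling genes was not tested. Downstream of the receptor, the kinase gene Syk was at 31.4 and 17.2 FPKM (log2 ratio -0.87), the phospholipase gene Plcg2 at 9.24 and 4.62 FPKM (log2 ratio -0.998) and Vav1, an exchange factor, at 11.7 and 4.46 FPKM (log2 ratio -1.39). Inpp5d, whose product SHIP1 restrains this signal, was also lower, at 15.8 and 7.29 FPKM (log2 ratio -1.11). The sheddases that release TREM2 from the cell surface diverged: Adam17 had a log2 ratio of -0.65, while Adam10, from 12.95 to 12.5 FPKM, had one of -0.05 (interval -0.18 to 0.08). Lipoprotein ligands went opposite ways, with Apoe at 3111 and 2110 FPKM (log2 ratio -0.56) and Clu at 59.2 and 103 FPKM (log2 ratio 0.80, interval 0.72 to 0.89).

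Itgax (gene 16411, chromosome 7, 135273061 to 135294171, plus strand, 30 exons) encodes CD11c, the integrin alpha chain used to mark inflammatory macrophages of fat and also carried by dendritic cells. Its level was 51.4 FPKM in fl/fl and 20.5 FPKM in AD1KO (log2 ratio -1.32, interval -1.42 to -1.24). Itgb2, the beta chain with which CD11c pairs, stood at 124 and 49.8 FPKM (log2 ratio -1.31). Here too the ratio of chain to partner was close in both libraries, 0.416 in fl/fl and 0.412 in AD1KO, and the interval of the difference ran from -0.13 to 0.10 on the log2 scale. The other alpha chains of this integrin family did not share 1 ratio. Itgal was at -1.78, Itgam (CD11b) at -0.74 and Itgad at 0.39, and the difference of Itgax from Itgam was -0.58 (interval -0.72 to -0.44).

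Mmp12 (gene 17381, chromosome 9, 7344381 to 7369499, plus strand, 7 exons in its longest annotated transcript) encodes macrophage elastase, a secreted protease that degrades elastin. It had the lowest ratio of the 10, from 165 FPKM in fl/fl to 61.0 FPKM in AD1KO, or 36.9% of the fl/fl level (log2 ratio -1.44, interval -1.49 to -1.38). Of 11 other matrix metalloproteinase genes tested, 3 were lower and 1 higher, and their median log2 ratio was -0.29, or -0.23 without Mmp7. Of the 3, Mmp7 is listed at 0 in AD1KO and rests on about 2 reads in fl/fl, and Mmp10 rests on about 5 and 2 reads. With a pseudocount of 1 FPKM, with a minimum of 1 FPKM or with the whole interval required past the threshold, 1 was lower. Mmp14, a membrane-bound family member, was at 44.2 and 39.1 FPKM (log2 ratio -0.18). Mmp13, a collagenase at 2.09 and 0.36 FPKM, had a lower ratio than Mmp12, at -2.50 from about 95 and 16 reads (interval -3.42 to -1.79). Mmp9, the macrophage and neutrophil gelatinase, was higher in AD1KO at 1.03 and 2.43 FPKM (log2 ratio 1.23).

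Spp1 (gene 20750, chromosome 5, 104864137 to 104870069, plus strand, 6 exons) encodes osteopontin, a secreted glycoprotein that binds CD44 and integrins on other cells. As the least abundant of the 10, it was at 35.0 FPKM in fl/fl and 16.5 FPKM in AD1KO (log2 ratio -1.09). Its interval, -1.27 to -0.91, was the widest of the 10 because it rests on about 813 and 379 reads. Among 7 receptor genes for osteopontin, 4 were lower and 0 higher, or 2 lower with a pseudocount of 1 FPKM or the whole interval required. Cd44 was at 54.4 and 22.1 FPKM (log2 ratio -1.30) and Itga4 at 8.17 and 3.77 FPKM (log2 ratio -1.11), whereas Itgb1, the beta chain of many matrix receptors, was at 103 and 91.2 FPKM (log2 ratio -0.18).

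Lgals3 (gene 16854, chromosome 14, 47987426 to 48005835, plus strand, 6 exons) encodes galectin-3, a sugar-binding protein that macrophages secrete. At 1572 FPKM in fl/fl it ranked 42 among all tested genes and made up 41.6% of the FPKM of the 10 genes. In AD1KO it was at 753 FPKM (log2 ratio -1.06, with a narrow interval of -1.09 to -1.04). No other galectin gene was lower by the threshold. Of 7 tested, 0 were lower and 3 higher (2 with the whole interval required, 1 at a threshold of 1). Of the 3, Lgals2 rests on about 10 and 39 reads and Lgals7 on about 29 and 52. Lgals9 (-0.39, interval -0.50 to -0.28) and Lgals8 (-0.29, interval -0.41 to -0.16) were under 0 but within the threshold. Lgals1, which fibroblasts and other stromal cells also express, was at 3328 and 4157 FPKM (log2 ratio 0.32). The difference between Lgals3 and Lgals1 was -1.38 on the log2 scale (interval -1.41 to -1.35). Lgals12, an adipocyte galectin, was at 29.9 and 45.8 FPKM (log2 ratio 0.62).

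Gpnmb (gene 93695, chromosome 6, 48986517 to 49020928, plus strand, 11 exons) encodes a transmembrane glycoprotein of lysosomes and melanosomes. It was at 356 FPKM in fl/fl and 137 FPKM in AD1KO (log2 ratio -1.38, interval -1.42 to -1.35). Factors of the MiT/TFE family, which drive lysosomal genes and Gpnmb, were all under 0 in ratio. Each ratio was smaller in size than that of Gpnmb. The interval of Tfec, -1.59 to -0.41 from about 76 and 38 reads, held the ratio of Gpnmb. Tfec was at 2.58 and 1.30 FPKM (log2 ratio -0.98), Tfeb at 17.4 and 11.9 FPKM (-0.54), Mitf at 5.47 and 3.88 FPKM (-0.49) and Tfe3 at 33.3 and 25.2 FPKM (-0.41). Tfec and Tfeb passed the threshold of 0.5, and under each of the 4 other scalings of the libraries 1 of them did. With the whole interval required, 0 did.

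Atp6v0d2 (gene 242341, chromosome 4, 19803988 to 19849752, minus strand, 8 exons) encodes a subunit of the proton pump that acidifies lysosomes, best known from osteoclasts and macrophages. Its level was 119 FPKM in fl/fl and 53.1 FPKM in AD1KO (log2 ratio -1.17, interval -1.24 to -1.09). The ubiquitous form of the same subunit, Atp6v0d1, stood at 121 FPKM in both libraries (log2 ratio -0.0059, interval -0.08 to 0.06). In fl/fl the 2 forms were therefore close to equal in FPKM (ratio 0.985), and in AD1KO the ratio was 0.441. Of 17 other pump subunit and accessory genes tested, 2 were lower and 0 higher, with a median log2 ratio of -0.30. The lower pair were Tcirg1, at 70.5 and 30.8 FPKM (log2 ratio -1.19), whose product is the a3 subunit of the osteoclast and macrophage pump, and Atp6v1b2, at -0.51, which was not past the threshold under any of the 4 other scalings. The difference of Atp6v0d2 from Tcirg1 was 0.03 (interval -0.09 to 0.14).

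Cd63 (gene 12512, chromosome 10, 128345975 to 128349872, plus strand, 8 exons) and Cd9 (gene 12527, chromosome 6, 125410284 to 125444809, minus strand, 8 exons) encode tetraspanins, membrane proteins of late endosomes, exosomes and the cell surface that many cell types carry. Cd9 was at 156 FPKM in fl/fl and 85.7 FPKM in AD1KO (log2 ratio -0.86, interval -0.95 to -0.78). Cd63 was at 715 and 475 FPKM (log2 ratio -0.59, interval -0.64 to -0.55), so that its AD1KO level was 66.5% of that in fl/fl. Of 6 other tetraspanin genes tested, 3 were lower and 0 higher (1 higher with upper quartile scaling), with a median log2 ratio of -0.48. Cd82 was at -0.65 (interval -0.80 to -0.50) and Tspan4 at -0.30 (interval -0.42 to -0.19). The leukocyte tetraspanins Cd53 and Cd37 were at -1.29 and -1.08, and the widely expressed Cd151 and Cd81 at 0.32 and 0.44. Cd9 and Cd63 lay between these pairs. The annotation holds genes named as copies of them, Cd9-ps (a pseudogene) and Cd63-ps (a noncoding transcript), that may share reads with them, and a long noncoding gene on the opposite strand overlaps Cd9, so their values are uncertain to that extent.

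Fabp5 (gene 16592, chromosome 3, 10012548 to 10016607, plus strand) encodes a cytosolic fatty acid-binding protein found in macrophages and also in adipocytes and endothelial cells. It was at 311 FPKM in fl/fl and 298 FPKM in AD1KO (log2 ratio -0.06). Its counting interval, -0.13 to -0.0081, ended just below 0, but the sign of the ratio turned with the scaling of the libraries, from -0.07 to 0.02 over the settings tried, so no difference can be called. Fabp4, the main adipocyte family member, which macrophages also express, was at 11151 and 15920 FPKM (log2 ratio 0.51). The difference of Fabp5 from Cd63, the next gene in the order of ratios, was 0.53 in size, with Cd63 lower (interval of Cd63 minus Fabp5 -0.60 to -0.45). An annotated pseudogene, Fabp5l2, may share reads with Fabp5.

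**Figure D2:**
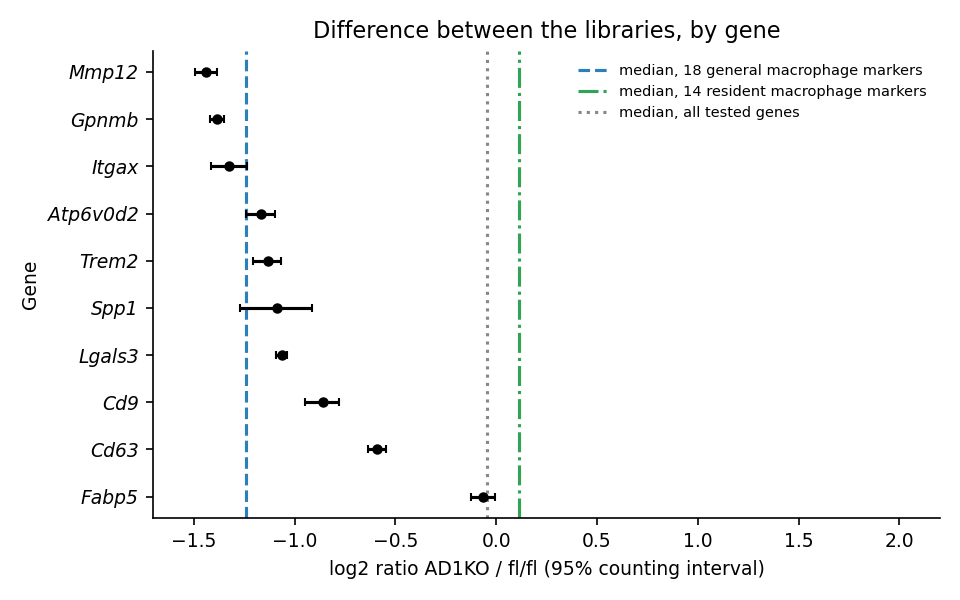
Log2 ratio (AD1KO over fl/fl) for each of the 10 genes (points) with 95% counting intervals (bars), beside the median of 18 general macrophage markers (-1.24, dashed), 14 resident macrophage markers (0.11, dash-dotted) and all tested genes (-0.04, dotted). Mmp12, Gpnmb and Itgax lie left of the dashed line, 6 genes lie between it and -0.5, and Fabp5 lies at -0.06.

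Ordered by log2 ratio, the 10 genes ran Mmp12, Gpnmb, Itgax, Atp6v0d2, Trem2, Spp1, Lgals3, Cd9, Cd63 and Fabp5. Of the 9 neighbouring pairs, 5 had a difference whose 95% interval held 0. Mmp12 could not be told from Gpnmb, nor Gpnmb from Itgax, and neighbours among Atp6v0d2, Trem2, Spp1 and Lgals3 did not differ beyond counting error. The ends of these runs did differ, Mmp12 from Itgax by -0.11 (interval -0.22 to -0.0088) and Atp6v0d2 from Lgals3 by -0.10 (interval -0.18 to -0.03). Breaks beyond counting error came between Itgax and Atp6v0d2 (-0.16, interval -0.27 to -0.04), between Lgals3 and Cd9 (-0.20, interval -0.29 to -0.11), between Cd9 and Cd63 and between Cd63 and Fabp5. These intervals do not include differences between animals.

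In whole fat tissue, fewer macrophages and less RNA per macrophage cannot be told apart, so the 10 genes were set beside markers that most macrophages carry. Of 18 general macrophage markers, 17 were lower and 0 higher, with a median log2 ratio of -1.24 and a sum of 8754 FPKM in fl/fl and 3718 FPKM in AD1KO. The most abundant of them, the lysozyme gene Lyz2, was at 2341 and 1187 FPKM (log2 ratio -0.98), and the extremes were Aif1 (-2.14) and the efferocytosis receptor gene Mertk (-0.48). Ratios of 9 of the 10 genes lay within that range, and Fabp5 lay above it. The median of the 10 was 0.13 above the median of the general markers, and differed by -0.0048 from that of Adgre1 (F4/80), Cd68 and Csf1r alone. Trem2 relative to Cd68 was at 0.423 in fl/fl and 0.415 in AD1KO (difference -0.03 on the log2 scale, interval -0.11 to 0.05). Itgax relative to Adgre1 was at 0.396 and 0.378 (difference -0.07, interval -0.17 to 0.04). Gpnmb relative to Cd68 was at 0.508 and 0.419, with an interval below 0 (difference -0.28, interval -0.33 to -0.22). Lgals3 was at 0.671 and 0.634 relative to Lyz2 (difference -0.08, interval -0.12 to -0.05), whereas relative to Cd68 its interval held 0. These pairs were picked after values were seen, and each result depends on the marker taken. Cd68, Adgre1 and Csf1r had log2 ratios of -1.11, -1.26 and -0.81, so another marker would give another difference. Whether any of the 10 genes changed per macrophage was not tested.

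Resident macrophage markers went both ways. Of 14, 5 were lower and 4 higher (2 with the whole interval required), with ratios from -0.80 to 0.95. Their median log2 ratio was 0.11, but their sum was lower in AD1KO, at 1295 and 1133 FPKM. Retnla, the most abundant, was at 549 and 445 FPKM (log2 ratio -0.31), the mannose receptor gene Mrc1 at 41.8 and 24.0 FPKM (-0.80) and the lectin gene Cd209f at 19.9 and 38.4 FPKM (0.95). Monocyte markers were lower in 5 of 8 (median -0.66). Dendritic cell markers were lower in 6 of 10 (4 with the whole interval required). Of them, 3 were higher, or 0 with the whole interval required and 1 with a pseudocount of 1 FPKM. Their median was -0.61, and it moved between -0.90, with a minimum of 1 FPKM, and -0.35, with a pseudocount of 1 FPKM. Whether the difference of the medians between the 10 genes and the resident markers exceeds the spread between animals was not tested, because there is 1 library per genotype.

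Other genes of the lipid-associated program divided. Of 28, 13 were lower, 1 was higher and 14 were neither, with a median log2 ratio of -0.42. The lysosomal protease gene Ctss was the lowest, at 1129 and 389 FPKM (log2 ratio -1.54), and Fabp4 the highest. Lipa, which encodes lysosomal acid lipase, and Lpl, which encodes lipoprotein lipase and is abundant in adipocytes, were singled out after their values were seen: Lipa was at 178 and 91.7 FPKM (log2 ratio -0.95) and Lpl at 2436 and 3195 FPKM (log2 ratio 0.39).

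Markers of other cells in the tissue differed in direction from list to list. Adipocyte markers were higher in 8 of 10 and lower in 0 (median log2 ratio 0.69, sum 6614 and 11785 FPKM), with Adipoq at 1911 and 3318 FPKM. Mesothelial markers were higher in 6 of 6 (median 0.79), endothelial markers in 1 of 8 (median 0.28) and stromal progenitor markers in 1 of 8, with 2 lower (median 0.08). Over all tested genes, 14.3% were higher and 19.1% lower, so the endothelial and stromal progenitor counts lie near these shares. With a pseudocount of 1 FPKM, 0 of either list were higher. T cell markers were lower in 7 of 7 (median -1.64), NK cell markers in 5 of 5 (median -2.04, or -1.13 with a pseudocount of 1 FPKM) and mast cell markers in 5 of 5 (median -1.48). No defining marker of these lists was at 0 in either library. Genes that many of these cells share with macrophages, such as Cd9, Cd63 and Fabp5, sum over all of them, and the part of each cell type in their values was not tested.

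**Figure D3:**
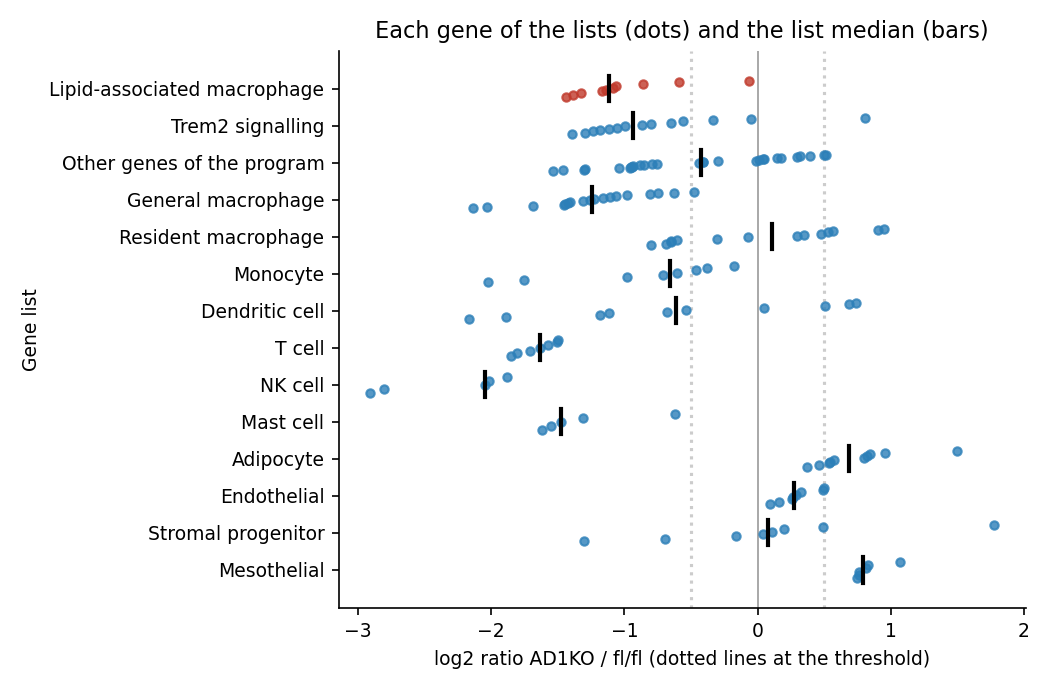
Log2 ratio (AD1KO over fl/fl) for every tested gene of 14 lists (dots, 1 gene each) and the median of each list (black bars), with dotted lines at -0.5 and 0.5. The 10 genes (red) and the general macrophage markers lie mostly left of -0.5, resident macrophage markers spread over both sides, and adipocyte and mesothelial markers lie right of 0.

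**Figure D4:**
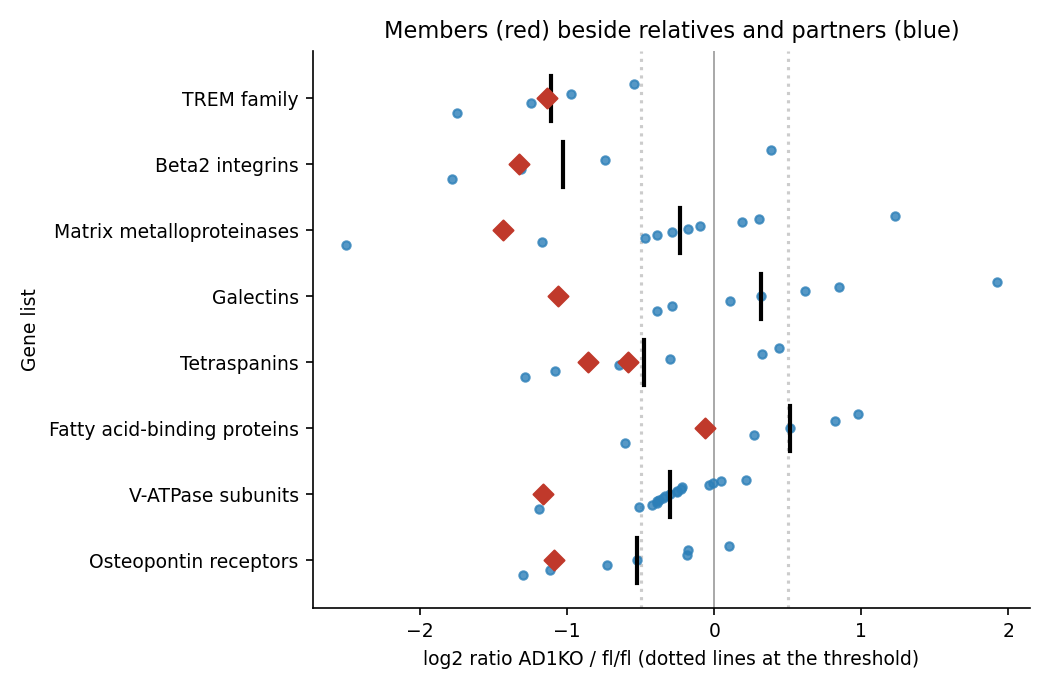
Log2 ratio (AD1KO over fl/fl) for each member (red diamonds) beside the genes of its family, complex or receptors (blue dots) and their median (black bars), leaving out Mmp7 and Fabp9, which are listed at 0 in AD1KO. Itgax lies on its partner Itgb2 at -1.31, Atp6v0d2 lies on Tcirg1 and apart from the other pump subunits, and Lgals3 lies left of all 7 other galectins.

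Promoter sequence was examined for 8 of the 10 genes, with 10 annotated starts among them, in RefSeq sequence of the GRCm38.p6 build (a different build from the mm9 positions above). Atp6v0d2 and Fabp5 were the other two. In the 250 bases before each start, both strands were searched for TGANTCA, a looser form of the AP-1 consensus. They were also searched for GAGGAAG, a core bound by the macrophage factor PU.1, and for the E-boxes CACGTG and CATGTG, which MiT/TFE factors bind. GAGGAAG was found at 4 of the 10 starts (Trem2, Spp1, Mmp12 and Cd63), beside 10.6% of all 32851 promoters, and TGANTCA at 3 (Trem2, Itgax and Mmp12), beside 6.75%. CATGTG was found at 2 starts (Cd9 and Mmp12), beside 12.3% of all promoters, and CACGTG at 0, beside 6.02%. No matches overlapped each other. A match is a run of letters and not a measured binding site. The starts with TGANTCA or GAGGAAG in the genes with the lower ratios are shown, 5′ to 3′ on the strand of the gene, with those matches in capitals:
Trem2, chr17:48346151-48346400, plus strand: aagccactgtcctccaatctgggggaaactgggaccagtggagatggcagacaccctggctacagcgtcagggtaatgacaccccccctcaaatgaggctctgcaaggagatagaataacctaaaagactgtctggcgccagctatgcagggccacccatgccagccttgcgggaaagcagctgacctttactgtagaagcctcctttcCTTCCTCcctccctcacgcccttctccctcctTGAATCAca
Itgax, chr7:128129300-128129549, plus strand: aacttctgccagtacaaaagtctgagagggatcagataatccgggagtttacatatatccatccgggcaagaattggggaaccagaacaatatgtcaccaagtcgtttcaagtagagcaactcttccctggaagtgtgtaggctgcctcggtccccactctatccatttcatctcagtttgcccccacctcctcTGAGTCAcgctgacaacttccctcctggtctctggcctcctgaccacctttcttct
Mmp12, first start, chr9:7344147-7344396, plus strand: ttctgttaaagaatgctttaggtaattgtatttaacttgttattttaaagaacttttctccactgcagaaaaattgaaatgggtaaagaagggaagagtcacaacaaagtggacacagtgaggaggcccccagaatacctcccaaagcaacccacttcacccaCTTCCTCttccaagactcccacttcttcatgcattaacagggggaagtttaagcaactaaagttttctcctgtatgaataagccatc
Mmp12, second start, chr9:7347124-7347373, plus strand: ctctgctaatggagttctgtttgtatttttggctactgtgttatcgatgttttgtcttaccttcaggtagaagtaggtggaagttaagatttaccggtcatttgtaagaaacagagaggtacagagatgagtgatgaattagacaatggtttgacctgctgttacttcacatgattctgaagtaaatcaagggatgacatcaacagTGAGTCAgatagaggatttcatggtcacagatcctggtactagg
Spp1, first start, chr5:104434861-104435110, plus strand: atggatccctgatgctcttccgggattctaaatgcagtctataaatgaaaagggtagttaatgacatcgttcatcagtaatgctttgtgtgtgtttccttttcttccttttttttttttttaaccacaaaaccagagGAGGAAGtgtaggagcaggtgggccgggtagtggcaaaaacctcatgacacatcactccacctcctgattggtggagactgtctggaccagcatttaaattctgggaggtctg

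Trem2 alone held both TGANTCA and GAGGAAG at 1 start. Its TGANTCA match, TGAATCA, began 9 bases before the start and lacks the G or C of the AP-1 consensus. The GAGGAAG letters, on the opposite strand, began 41 bases before the start. CpG dinucleotides, the sites at which the deleted enzyme maintains methylation, were counted over the 300 bases from 250 before to 50 after each start. The deletion is mainly in mature adipocytes, and the macrophages of the tissue keep their own Dnmt1. Whether the deletion acts on these promoters was not tested. The 10 starts had a median of 5 CpG, beside 7 over all promoters, and 7 of the 10 lay below that median. The first Mmp12 start had 0 CpG and both Spp1 starts had 3, whereas Cd9 and Lgals3 had 18 each. Methylation at these promoters was not analysed here.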

How the data were processed

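Poly(A) RNA of gWAT was sequenced by BGI and reads were aligned to mouse mm9. The labels list mm9 and mm10 for the series without saying which data each belongs to. The aligner and the program that computed expression are not given in the sources used here. The header does not name the unit of the expression columns, which was taken as FPKM from the values and lengths. The authors deposited 1 table with the transcript length and FPKM of each gene, with 0 written as 0.01. Its columns of the authors' own comparison (deposited log2 fold change, p-value and an uncapped FDR score) were not used. Each column was matched to its genotype through the library name in the labels.

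Values of 0.01 were set back to 0. A gene was tested if it reached 0.1 FPKM in either library, and was called lower or higher at a log2 ratio of -0.5 or 0.5. Read depth was found from FPKM and length alone: the library size and length correction (119 and 121 bases) were those at which low values came closest to whole reads. Of 565 low genes in fl/fl, 86.9% lay within 0.2 of a whole read, and of 541 in AD1KO 85.4%, where evenly spread values would give 40%. The interval of a difference between 2 genes is the normal approximation from the 4 read counts. Gene positions are from GENCODE for mm9. Every exon count given is that of the longest annotated transcript. That transcript can differ from the one whose length was used for expression. For Mmp12 the lengths were 4474 and 3607 bases, and for Trem2 4784 and 1098 bases. Reads may be shared by overlapping genes on opposite strands (Mmp12 and Mmp1b; Cd9), as the use of strand is not given in the sources used here.

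The members and the 26 gene lists were chosen with earlier results of these data known. Named genes were the 10 members, Dnmt1, genes of TREM2 signalling, of the MiT/TFE factors and of the members' families, and from each other list the most abundant gene and those with the lowest and highest ratio. Of the list genes, Cd68, Adgre1, Csf1r, Lipa, Lpl and Pax8 were named outside this rule. Partner pairs, motifs and the CpG count were chosen after values were seen. Alternatives were 4 scalings, 2 other pseudocounts, 2 other filters, reads in place of FPKM and 2 stricter calls. The steps were tested on simulated data. Tables were handled in pandas 2.3.3 and NumPy 2.4.6 under Python 3.11.15, intervals computed in SciPy 1.17.1, and plots drawn in Matplotlib 3.10.9.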

Additional observations from a re-analysis of the deposited data

How the results depend on the processing

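No paired analysis was possible because each genotype has a single pool. The same lack of replicates means that no setting below addresses the spread between animals. The 9 genes called lower stayed lower by at least 0.5 under each of the 4 scalings, 2 pseudocounts and 2 filters, and on estimated reads. With a log2 ratio threshold of 1 the count was 7. Cd63 was nearest the threshold of 0.5, at -0.5003 with upper quartile scaling, so its call only just held there. The intervals given for it and the other genes are for the main scaling. The median of the 10 genes, -1.11, was -1.02 with upper quartile scaling and -1.03 with scaling to the summed FPKM, a setting added after the data were seen. The median of the general macrophage markers, -1.24, was -1.15 and -1.16 under these. The gap between the medians, 0.13, was -0.0048 with Adgre1, Cd68 and Csf1r alone. Over all genes, against 3029 lower and 2265 higher, a pseudocount of 1 FPKM gave 1661 and 965, a threshold of 1 gave 1417 and 910, and requiring the entire interval beyond 0.5 gave 1326 and 658. A minimum of 1 FPKM left 1281 higher genes, with fewer genes tested. Dnmt1 ranged from -1.07 to -0.88. Fabp5 changed sign with scaling, up to 0.02. Among endothelial and stromal progenitor markers 0 to 2 were higher, and of the other genes of the lipid-associated program 0 to 2.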

Other observations

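Lists not described above went several ways, and each value is from 1 pooled library per genotype. B cell markers were lower in 2 of 4 (1 with the whole interval required), with a median log2 ratio of -0.44 and Cd79a at 47.5 FPKM in fl/fl and 29.3 FPKM in AD1KO. Neutrophil markers were lower in 4 of 6 (2 with a pseudocount of 1 FPKM, 1 with the whole interval required) and higher in 2, with a median log2 ratio of -0.79 (-0.30 with that pseudocount), S100a8 being at 32.7 and 57.3 FPKM (log2 ratio 0.81). Reproductive tract epithelial markers were lower in 5 of 8, with Ltf at 5.09 and 0.20 FPKM and the keratin gene Krt8 at 5.32 and 6.42 FPKM. Their median log2 ratio was -2.29, or -1.61 with Pax8, which is listed at 0 in AD1KO, set to the bound that 3 reads give. It moved between -3.19, with a minimum of 1 FPKM, and -0.38, with a pseudocount of 1 FPKM, and 3 were lower under either. Relatives of Trem2 were low, the most abundant being Treml4 at 2.85 and 0.84 FPKM, and rested on few reads: about 82 and 24 for Treml4, 73 and 30 for Treml2, 12 and 6 for Treml1 and 3 and 2 for Trem3. All 4 were past the threshold, 2 with the whole interval required and 1 with a pseudocount or a minimum of 1 FPKM, and the intervals of Treml1 and Trem3 hold 0. Among fatty acid-binding protein genes other than Fabp5, 3 of 6 tested were higher and 2 lower, of which Fabp9 has a listed value of 0 in AD1KO and about 2 reads in fl/fl. Their median log2 ratio was 0.39, or 0.51 without Fabp9. With the whole interval required, 1 was higher and 0 lower. Fabp3, at 1.13 and 2.24 FPKM, rests on about 11 and 22 reads and its interval holds 0.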
